A study of Rattus norvegicus with 49 samples.

Results

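Liver gene expression was compared between the top dose of propylene glycol phenyl ether from which tissue was taken, 1000 mg/kg, and the dose below it, 500 mg/kg. The arrays were chosen by their titles, 4 from liver at 1000 mg/kg and 4 from liver at 500 mg/kg, which is 8 of the 49 arrays of the series. All animals were male Harlan Sprague Dawley rats, an outbred stock, 6 to 8 weeks old when they were assigned to groups. They received the compound, a glycol ether solvent, in corn oil by gavage for 5 consecutive days at 5 mL/kg, and tissue was taken on the day after the last dose. The 5 vehicle controls at 0 mg/kg received corn oil alone, and the 12 liver arrays at 1, 10 and 100 mg/kg enter only the estimate of the spread. A group given 2000 mg/kg was killed moribund before its last dose and gave no tissue. The labels call the arrays of a group biological replicates, and each array holds RNA from 1 tissue sample.

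The liver handles foreign compounds in steps. Oxidising enzymes such as the cytochromes P450 act first, conjugating enzymes then attach glutathione, sulfate, glucuronic acid or an amino acid, and export pumps move the products into bile or blood. Sets of these genes are switched on by nuclear receptors, among them CAR, PXR and PPAR alpha, and by NRF2, a factor that responds to reactive molecules. Hepatocytes of young rats also divide to some extent, and the genes for mitosis are transcribed in the cells that do.

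Expression is given as log2 RMA values for 14217 genes, so a difference of 1 is a doubling of the signal. Array medians in liver lay between 6.47 and 6.62, and no pair among the 8 arrays correlated below 0.987 across genes. On the first principal component of these 8 arrays, which held 25.0% of the variance, 1000 mg/kg replicate 2 stood apart, and on the second, with 17.5%, 500 mg/kg replicate 2 did. For mitosis genes 500 mg/kg replicate 3 stood apart. The mitosis list median and p counts, Cdk1 and Kif11 are given with and without it. Differences of the other mitosis genes named are given only with it. Hepatocyte markers were high on all 8 arrays, with list means between 13.34 and 13.49. The samples are bulk tissue, so fewer cells of a type and less RNA per cell cannot be told apart. Precision is set by the number of arrays: the median gene had a 95% interval of 0.25 log2 units on either side of its difference.

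Between 500 and 1000 mg/kg 1 of 14217 genes passed (0.00703%), and it rose. No gene fell at a limma adjusted p under 0.05. An unadjusted p under 0.05 was reached by 381 genes that were higher at 1000 mg/kg (2.68%) and by 550 that were lower (3.87%), 931 in all (6.55%). The 4 arrays of each dose did not overlap for 259 genes higher at 1000 mg/kg (1.82%) and 351 lower (2.47%). The point estimate was at least 1.5-fold higher for 37 genes and at least 1.5-fold lower for 70. For 12825 genes (90.2%) the whole 95% interval of the difference lay within 1.5-fold in either direction. That bounds the change in signal between these doses for most of the genes measured. Detection calls were not used, so the count takes in genes whose signal may be background. For 81 genes (0.57%) the interval reached past 1.5-fold on both sides, and nothing can be said of those at this number of arrays. Set against the controls, 7 genes passed at 500 mg/kg, all higher (0.0492%), and 149 at 1000 mg/kg (1.05%), 105 higher (0.739%) and 44 lower (0.309%). These comparisons share arrays with the step between the top doses, so their values are set side by side below and not compared as lists.

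**Figure D1:**
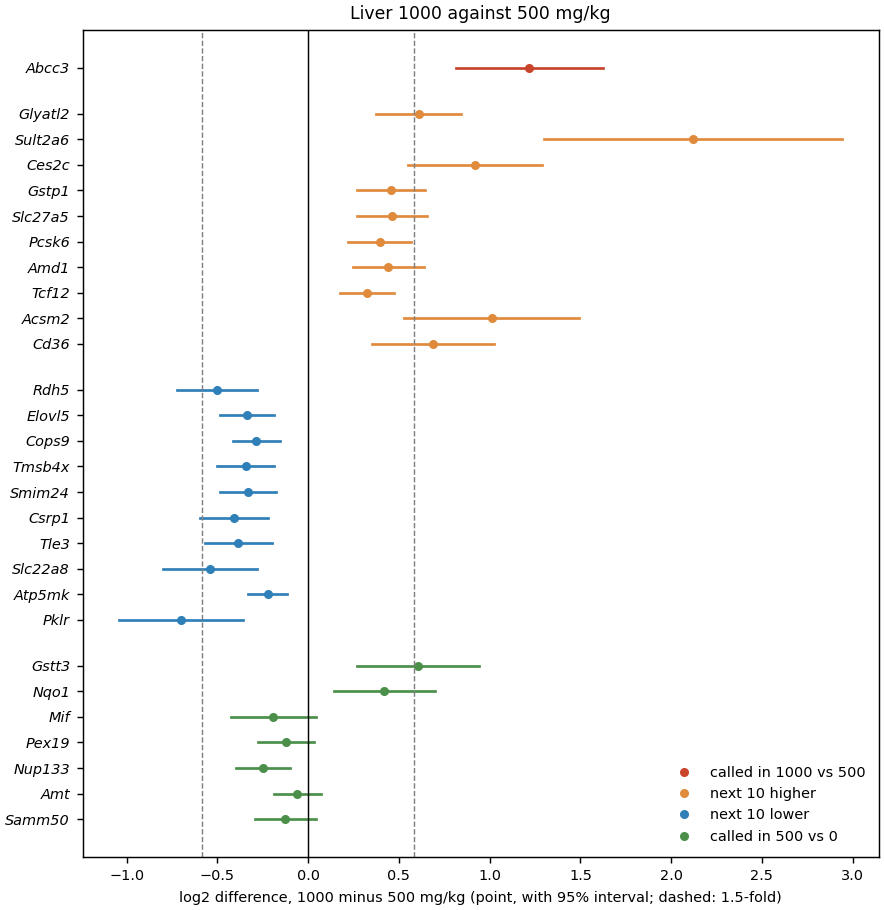
Log2 difference in liver between 1000 and 500 mg/kg (x axis, point with its 95% interval from limma). Drawn are the gene that passed the test, the next 10 higher and 10 lower genes by p, and the 7 genes called at 500 mg/kg against controls. The 10 each way are those whose arrays did not overlap and whose level was at or above the median of all genes. Cdk1 and Kif11 lie below that level and are not drawn. Dashed lines mark 1.5-fold. Abcc3 stands at 1.22, Sult2a6 has the largest difference at 2.12, and 5 of the 7 genes called at 500 mg/kg have intervals wholly inside the dashed lines.

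Abcc3 (probe set 1369698_at), an export pump of the blood-facing hepatocyte membrane that carries glucuronides and bile acids, was the gene that rose. Its values were 5.88, 6.32, 5.81 and 5.76 at 500 mg/kg and 6.65, 7.32, 7.53 and 7.13 at 1000 mg/kg. Every array at the top dose lay above every array at 500 mg/kg and above all 5 controls, which ran from 4.86 to 6.09. The rise was 2.33-fold (log2 difference 1.22, 95% interval 0.81 to 1.62, limma adjusted p = 0.0338). At 500 mg/kg Abcc3 stood 0.55 above controls without passing (adjusted p = 0.258). The step from 500 to 1000 mg/kg exceeded the step from 0 to 500 mg/kg by 0.66, with an unadjusted p of 0.0577. The call rests on few arrays: the adjusted p was 0.319 in a fit of the 8 arrays alone, and with replicate 1, 3 or 4 at the lower dose or replicate 2 or 3 at the top dose left out it lay between 0.05003 and 0.260, not past the threshold. The difference itself stayed between 1.09 and 1.39 with any one array left out. Of 26 hepatic efflux and uptake transporters Abcc3 alone passed. At an unadjusted p under 0.05, 2 were higher and 4 lower (2.68% and 3.87% of all genes). The median was 0.11 (0.05 without 1000 mg/kg replicate 2).

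Several conjugating enzymes had arrays that did not overlap, without passing the test. Sult2a6 (probe set 1387006_at) belongs to the sulfotransferases that act on bile acids and steroids. It read 8.16, 7.92, 8.91 and 8.5 at 500 mg/kg and 10.28, 10.66, 10.50 and 10.53 at 1000 mg/kg. All arrays at the top dose also lay above the controls, which read 8.29, 8.29, 9.51, 9.52 and 9.36. The difference between the top doses was 4.35-fold (2.12, interval 1.30 to 2.94), with a limma adjusted p of 0.0711. At 500 mg/kg the mean lay below the controls by 0.62 (adjusted p = 0.567), and the step difference was 2.74 (unadjusted p = 0.00051). The signal is uncertain as to the gene, since the rat has near-identical Sult2a genes that a probe set may not separate. In a fit of the 8 arrays alone Sult2a6 was the 1 gene called (adjusted p = 0.0152). Of 19 sulfation and glucuronidation genes none passed between the top doses. At an unadjusted p under 0.05, 3 were higher and 2 lower (2.68% and 3.87% of all genes). The median was 0.09 (0.05 without 1000 mg/kg replicate 2).

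Ces2c, a carboxylesterase that splits esters and amides, read 7.66, 8.09, 7.80 and 7.91 at 500 mg/kg and 8.54, 8.73, 9.34 and 8.53 at 1000 mg/kg. The lowest top-dose array lay above the highest array at 500 mg/kg and above all controls, which reached 7.80. Its difference was 0.92 (interval 0.55 to 1.29, adjusted p = 0.0743). Glyatl2 is named as a relative of the enzyme that joins glycine to acyl groups. It read 8.53, 8.52, 8.44 and 8.65 at 500 mg/kg and 9.16, 9.33, 9.33 and 8.77 at 1000 mg/kg, without overlap, a difference of 0.61 (interval 0.37 to 0.84, adjusted p = 0.0711). Acsm2, of the family that activates medium-chain and aromatic acids with coenzyme A before glycine is attached, read 7.05, 7.11, 6.82 and 7.38 at 500 mg/kg. It read 8.20, 7.84, 8.53 and 7.83 at 1000 mg/kg, 1.01 higher (interval 0.53 to 1.49, adjusted p = 0.148). Against controls the 1000 mg/kg rise passed for all 3, at 1.28 for Ces2c, 0.86 for Glyatl2 and 1.43 for Acsm2, while at 500 mg/kg they stood at 0.36, 0.25 and 0.42 and did not pass. Of the 11 measured carboxylesterases and glycine conjugation genes, none passed between the top doses, and 10 had a positive difference. At an unadjusted p under 0.05, 3 were higher and none lower (2.68% and 3.87% of all genes). The median was 0.12, against -0.00 over all genes, and 0.08 without 500 mg/kg replicate 1. In 4 of the 11, Acsm5 among them, the arrays did not overlap with 1000 mg/kg higher (1.82% of all genes).

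**Figure D2:**
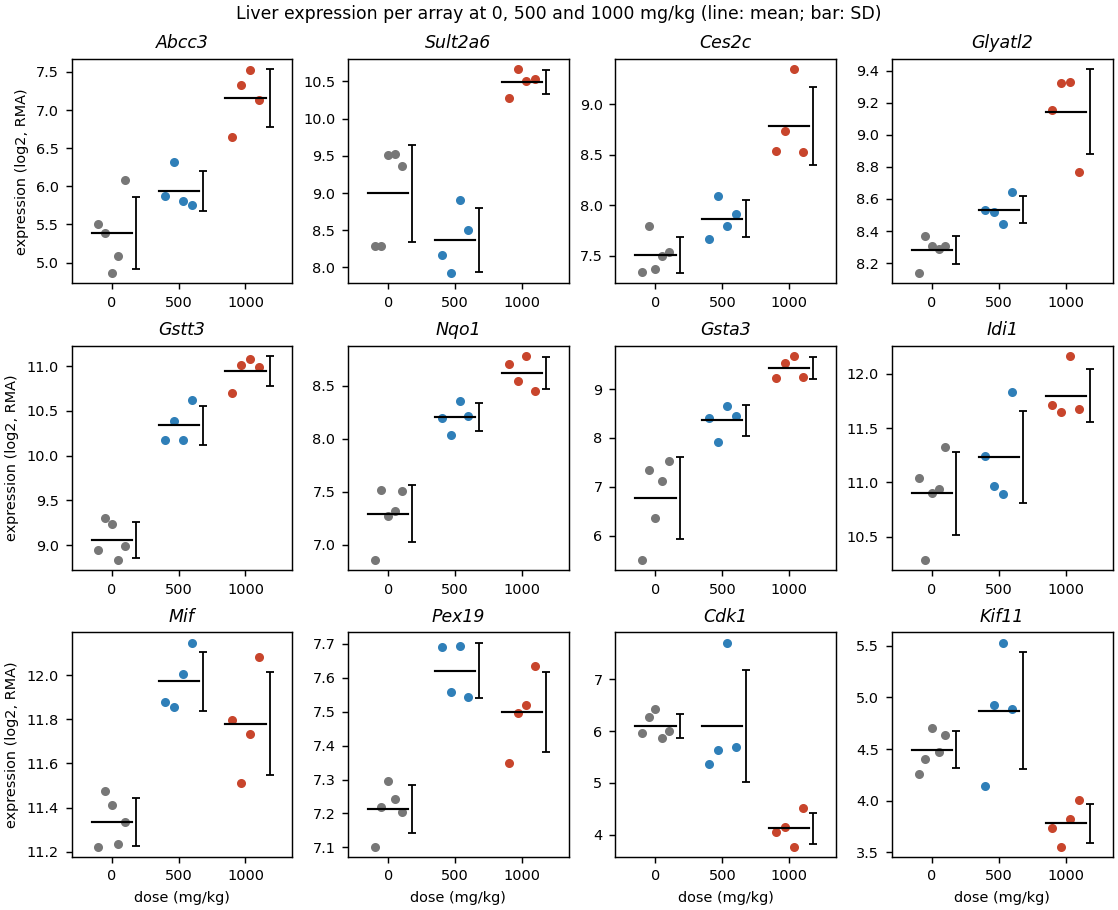
Log2 expression per liver array (y axis, scales differ between genes) at 0, 500 and 1000 mg/kg (x axis) for 12 genes. Points are arrays, horizontal lines means and vertical bars SD (n = 5, 4 and 4). Abcc3, Sult2a6, Ces2c and Glyatl2 separate at 1000 mg/kg, Mif and Pex19 overlap between 500 and 1000 mg/kg above the controls, and in Cdk1 1 of the 4 arrays at 500 mg/kg lies at 7.71, far above the other 3.

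Among the measured targets of CAR and PXR the top dose was higher for most. Cyp2b1 and Cyp2b2 of this list were not measured, and the list includes the receptor genes Nr1i2 and Nr1i3. Members such as Abcc3, Ces2c, Ugt2b1, Aldh1a1 and Ephx1 are counted in other lists too. Of 19 list members measured, 1 passed (Abcc3). At an unadjusted p under 0.05, 8 were higher and 1 was lower (2.68% and 3.87% of all genes). The lower one is not among the genes named here. The arrays did not overlap in 6 with 1000 mg/kg higher and in 1 with 1000 mg/kg lower (1.82% and 2.47% of all genes), and 16 had a positive difference. The median was 0.31 between the top doses, 0.05 at 500 mg/kg against controls and 0.33 at 1000 mg/kg against controls. At 1000 mg/kg 6 members passed against controls, all higher (0.739% of all genes), and 3 did without replicate 3 of that dose. Cyp3a18, a male-enriched cytochrome P450 of the 3A family, read 12.33, 12.57, 12.20 and 12.53 at 500 mg/kg and 12.72, 12.78, 13.00 and 12.86 at 1000 mg/kg. No array of the lower dose reached the top-dose values (difference 0.44, interval 0.22 to 0.65, adjusted p = 0.148). Cyp3a23-3a1, the family member used as the classic PXR readout in rats, was 0.56 higher (interval 0.26 to 0.85, adjusted p = 0.259), and close relatives in the 3A family may share its probe set. Ugt2b1, a glucuronidating enzyme, was 0.38 higher (adjusted p = 0.403), and Aldh1a1, a retinal and aldehyde dehydrogenase, was 0.44 higher (adjusted p = 0.433). Ephx1, the microsomal epoxide hydrolase, was 0.28 higher (adjusted p = 0.380), with arrays of both doses overlapping. The list median stayed between 0.24 and 0.36 with any one array left out.

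The NRF2 and glutathione genes include those with the clearest changes at 500 mg/kg. Gstt3, a theta class glutathione transferase, read 8.94, 9.30, 9.23, 8.83 and 8.99 in controls, 10.17, 10.38, 10.17 and 10.62 at 500 mg/kg and 10.69, 11.01, 11.07 and 10.99 at 1000 mg/kg. The 3 groups do not overlap. Its rise to 500 mg/kg passed (1.28, adjusted p = 0.000379), and the further difference was 0.61 (interval 0.27 to 0.94, adjusted p = 0.304). The second step was smaller than the first by 0.67 (unadjusted p = 0.024). Nqo1, the quinone reductase that serves as a standard NRF2 readout, behaved alike in its values. It read 6.85, 7.52, 7.27, 7.32 and 7.51 in controls, 8.20, 8.03, 8.36 and 8.21 at 500 mg/kg and 8.71, 8.55, 8.78 and 8.45 at 1000 mg/kg. Its rise to 500 mg/kg was 0.91 (adjusted p = 0.00251) and the next difference 0.42 (interval 0.14 to 0.70, adjusted p = 0.469). For both genes the interval of the second step lies above 0 and does not pass after adjustment over all genes.

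Gsta3, an alpha class transferase, had the largest rise at 1000 mg/kg against controls (2.65, adjusted p = 9.13e-05) and stood at 1.58 at 500 mg/kg (adjusted p = 0.0658). It read 8.40, 7.92, 8.66 and 8.45 at 500 mg/kg and 9.23, 9.54, 9.68 and 9.24 at 1000 mg/kg, a difference of 1.07 (interval 0.37 to 1.76, adjusted p = 0.460). Gstp1, the pi class transferase, stood within 0.04 of controls at 500 mg/kg. At 1000 mg/kg it read 9.23, 9.45, 9.76 and 9.33 against 9.03, 8.89, 9.03 and 9.0 at 500 mg/kg, a difference of 0.46 (interval 0.27 to 0.64, adjusted p = 0.0875). Hmox1, which breaks down heme and is also an NRF2 target, went the other way. It read 7.98, 8.33, 8.26 and 8.45 at 500 mg/kg and 7.78, 7.81, 7.90 and 7.83 at 1000 mg/kg (-0.43, interval -0.66 to -0.19, adjusted p = 0.294), and its fall against controls at 1000 mg/kg passed (-0.45, adjusted p = 0.0375). Gstm5, a mu class transferase, also had lower values at the top dose (-0.52, adjusted p = 0.259). Of the 28 NRF2 targets none passed between the top doses, and the median was 0.13 (0.06 without 500 mg/kg replicate 2). At an unadjusted p under 0.05, 6 were higher and 1 lower (2.68% and 3.87% of all genes). The same list had medians of 0.14 at 500 mg/kg and 0.26 at 1000 mg/kg against controls. Of 21 glutathione transferases 5 were higher and 3 lower at an unadjusted p under 0.05 (2.68% and 3.87% of all genes). Their median was 0.08 (0.02 without 1000 mg/kg replicate 3).

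Bile acid genes were higher in part. Slc27a5, which activates bile acids with coenzyme A before glycine or taurine is joined to them, read 12.23, 12.33, 12.08 and 12.51 at 500 mg/kg and 12.80, 12.81, 12.79 and 12.59 at 1000 mg/kg. The arrays did not overlap and the difference was 0.46 (interval 0.27 to 0.66, adjusted p = 0.0875). At 500 mg/kg it stood 0.05 below controls, and its step difference was 0.51 (unadjusted p = 0.00377). Akr1d1, the steroid 5-beta reductase, was 0.38 higher and did not overlap, and Cyp27a1, the mitochondrial sterol hydroxylase, was 0.27 higher with overlap. Cyp7a1, the rate-limiting enzyme of bile acid synthesis, read 10.47, 9.87, 9.90 and 8.96 at 500 mg/kg and 11.49, 10.36, 10.65 and 11.02 at 1000 mg/kg. Its controls spread from 9.53 to 11.85 and covered both groups in large part (difference between the top doses 1.08, interval 0.16 to 2.00, adjusted p = 0.673). Of 18 measured bile acid genes 5 were higher and none lower at an unadjusted p under 0.05 (2.68% and 3.87% of all genes). In 3 the arrays did not overlap, with the top dose higher (1.82% of all genes). None passed, and the median was 0.07 (0.12 without 500 mg/kg replicate 1).

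Cholesterol synthesis genes had higher means at 1000 than at 500 mg/kg, with overlap between the arrays. All 17 measured members had a positive difference between the top doses, with a median of 0.33. Of these 10 had an unadjusted p under 0.05 (2.68% of all genes were higher at that level). None passed after adjustment and none had arrays that did not overlap. Against controls the medians were 0.36 at 500 mg/kg, where none passed, and 0.70 at 1000 mg/kg, where 12 passed, all higher (0.739% of all genes). The mean of the list read 10.42, 10.18, 10.38 and 10.82 at 500 mg/kg and 10.54, 10.68, 11.07 and 10.81 at 1000 mg/kg, so 500 mg/kg replicate 4 lay among the top-dose arrays. In controls it read 10.21, 9.61, 10.23, 10.03 and 10.32, so 500 mg/kg replicate 2 lay below 3 of the 5 controls and the second control lay lowest. Without that control the medians were 0.25 at 500 mg/kg and 0.62 at 1000 mg/kg, with 8 genes passing at 1000 mg/kg, and without 1000 mg/kg replicate 3 a single member passed there in place of 12. The median at 500 mg/kg was 0.22 without replicate 4 of that dose. Idi1, which makes the isoprenoid unit dimethylallyl diphosphate, was 0.57 higher (interval 0.15 to 0.98, adjusted p = 0.552), with 11.24, 10.96, 10.89 and 11.83 at 500 mg/kg and 11.71, 11.65, 12.17 and 11.67 at 1000 mg/kg. Fdft1, squalene synthase, was 0.33 higher, Ebp, a sterol isomerase, 0.32 higher and Tm7sf2, a sterol reductase, 0.36 higher, with adjusted p from 0.545 to 0.585. One array carries much of this: without 1000 mg/kg replicate 3 the number at an unadjusted p under 0.05 was 2 in place of 10 and the median 0.23. Without 500 mg/kg replicate 4 that number was 14 and the median 0.44. Acat2, the cytosolic thiolase at the head of the pathway, stood 0.70 above controls at 500 mg/kg and 1.14 at 1000 mg/kg, where it passed (adjusted p = 0.0071).

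The fatty acid genes named here are among those with the smallest p in their lists, and none of them passed. Those of uptake and oxidation had positive differences and those of synthesis negative ones, while both lists held members of either direction. Cd36, a fatty acid uptake protein, read 6.90, 6.59, 7.0 and 6.5 at 500 mg/kg and 7.33, 7.26, 7.49 and 7.67 at 1000 mg/kg (0.69, interval 0.35 to 1.02, adjusted p = 0.148), while at 500 mg/kg it lay within 0.04 of controls. Cyp4a1, the fatty acid omega-hydroxylase that serves as the standard PPAR alpha readout, was 0.39 higher without overlap (adjusted p = 0.552), and Ehhadh, of peroxisomal beta-oxidation, 0.38 higher with overlap. Of 36 PPAR alpha targets and fatty acid oxidation genes 18 had a positive difference, none passed, and the median was 0.01. At an unadjusted p under 0.05, 5 were higher and none lower (2.68% and 3.87% of all genes). On the synthesis side, Elovl5, which lengthens polyunsaturated fatty acids, read 12.53, 12.45, 12.70 and 12.48 at 500 mg/kg and 12.17, 12.14, 12.24 and 12.26 at 1000 mg/kg. The groups did not overlap, the difference was -0.34 (interval -0.48 to -0.19, adjusted p = 0.123), and the fall against controls at 1000 mg/kg passed (adjusted p = 0.0144). Fads2, the delta-6 desaturase, was lower by 0.36 (-0.36, adjusted p = 0.625). Scd, the stearoyl desaturase, had the widest spread, with 11.23, 11.02, 11.96 and 10.76 at 500 mg/kg and 9.53, 9.51, 10.08 and 11.15 at 1000 mg/kg (-1.18, interval -2.26 to -0.09, adjusted p = 0.729). Of 20 fatty acid synthesis genes 7 had a positive difference. At an unadjusted p under 0.05 none was higher and 4 were lower (2.68% and 3.87% of all genes). The median was -0.10 between the top doses, -0.19 without 1000 mg/kg replicate 4 and 0.00051 without replicate 1, and stood at 0.18 at 500 mg/kg and 0.08 at 1000 mg/kg against controls.

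**Figure D3:**
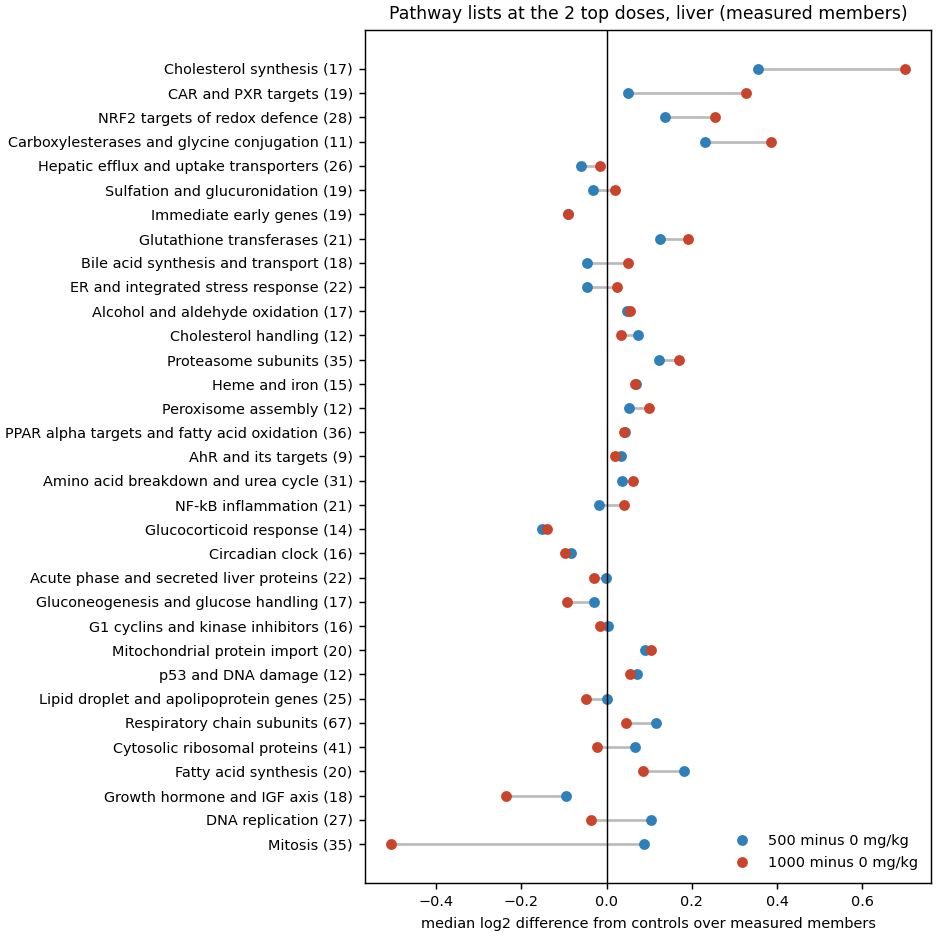
Median log2 difference from controls (x axis) over the measured members of 33 pathway lists (y axis, number of members in brackets) at 500 mg/kg (blue) and 1000 mg/kg (red), ordered by the median difference between the top doses. Cholesterol synthesis has medians of 0.36 and 0.70, CAR and PXR targets 0.05 and 0.33, and mitosis genes 0.09 and -0.51.

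Mitosis genes were lower at 1000 mg/kg, and much of the size of that difference came from 1 array at 500 mg/kg. The genes of this group are transcribed late in the cell cycle, many of them through promoters with a CHR element (TTTGAA) and CCAAT boxes. The 250 bases before the start site are shown for 3 of the members described, to show where these elements lie in those that hold them. They are from RefSeq, build GRCr8, 5′ to 3′ on the plus strand, at chr20:19265043-19265292 for Cdk1, chr1:244536617-244536866 for Kif11 and chr1:143659231-143659480 for Prc1. Capitals mark the CHR element TTTGAA and the CCAAT box, which reads ATTGG where it lies on the other strand.
Cdk1: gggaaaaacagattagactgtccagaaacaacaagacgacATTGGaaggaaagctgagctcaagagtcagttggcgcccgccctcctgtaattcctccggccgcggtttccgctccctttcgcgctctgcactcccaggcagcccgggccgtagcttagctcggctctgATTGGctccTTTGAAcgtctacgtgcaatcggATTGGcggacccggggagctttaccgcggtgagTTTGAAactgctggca
Kif11: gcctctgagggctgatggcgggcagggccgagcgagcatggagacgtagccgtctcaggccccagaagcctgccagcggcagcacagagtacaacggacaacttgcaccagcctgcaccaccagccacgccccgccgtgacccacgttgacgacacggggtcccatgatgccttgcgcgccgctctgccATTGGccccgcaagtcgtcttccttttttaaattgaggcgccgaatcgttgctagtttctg
Prc1: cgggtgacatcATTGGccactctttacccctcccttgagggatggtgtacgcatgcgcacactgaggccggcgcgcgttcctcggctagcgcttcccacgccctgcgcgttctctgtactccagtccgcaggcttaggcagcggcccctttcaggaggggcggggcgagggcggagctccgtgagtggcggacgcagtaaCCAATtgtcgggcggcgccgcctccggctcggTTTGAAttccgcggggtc
The Cdk1 window held 2 CHR elements and 3 CCAAT boxes, that of Prc1 1 and 2, and that of Kif11 no CHR element and 1 CCAAT box. Both strands were searched from 250 bases before to 50 after the start site, and no marked motif overlapped another. TTTGAA was found in 22 of the 30 mitosis promoters in the RefSeq table (73.3%) against 18.2% of 27457 promoters of the same length. CCAAT was found in 24 of the 30 (80.0%) against 37.7%. CCAAT was as common in the cholesterol synthesis promoters, 11 of 14 (78.6%), and stood in 9 of 17 CAR and PXR target promoters (52.9%), while TTTGAA stood in 14.3% and 17.6% of these. These matches are a description of the letters in these windows.

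Cdk1 (probe set 1367776_at), the kinase that drives entry into mitosis, read 5.37, 5.63, 7.71 and 5.70 at 500 mg/kg and 4.06, 4.16, 3.77 and 4.51 at 1000 mg/kg. All top-dose arrays lay below all arrays at 500 mg/kg and below the controls, which ran from 5.86 to 6.42. Replicate 3 at 500 mg/kg lay above every control. The difference was -1.97 (interval -2.75 to -1.20, adjusted p = 0.0711), and -1.44 without that replicate (adjusted p = 0.148). Kif11, a motor protein of the spindle, read 4.14, 4.93, 5.53 and 4.89 at 500 mg/kg and 3.74, 3.56, 3.82 and 4.01 at 1000 mg/kg (-1.09, interval -1.51 to -0.67, adjusted p = 0.0711, and -0.87 without the replicate). Ccna2, cyclin A2, differed by -1.83 (adjusted p = 0.259), with 4.17, 3.39, 6.52 and 4.16 at 500 mg/kg and 2.57, 2.67, 2.71 and 2.95 at 1000 mg/kg. Prc1, which bundles spindle microtubules, differed by -1.08 (adjusted p = 0.275), and its arrays at 500 mg/kg were 6.32, 5.95, 7.80 and 6.07 against 5.74, 5.34, 5.30 and 5.42. In each of these 4 genes replicate 3 was the highest array at 500 mg/kg and the groups did not overlap.

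Over the 35 measured mitosis genes, 33 had a negative difference between the top doses. At an unadjusted p under 0.05, 21 were lower and none higher (3.87% and 2.68% of all genes). In 12 the arrays did not overlap, with the top dose lower (2.47% of all genes). None passed after adjustment. The median was -0.56 between the top doses, 0.09 at 500 mg/kg against controls and -0.51 at 1000 mg/kg against controls. At 1000 mg/kg 2 passed against controls, Cdk1 and Cdkn3, both lower (0.309% of all genes). With any one array of these groups left out 1 or 2 passed. The mean of the list read 5.05, 4.91, 6.36 and 5.03 at 500 mg/kg, 4.63, 4.65, 4.57 and 4.69 at 1000 mg/kg and 5.11 to 5.44 in controls. Replicate 3 was the highest of the 4 arrays at 500 mg/kg in 34 of 35 genes, by a median of 1.31 above the mean of the other 3. Without it the median difference was -0.34, with 8 genes lower and 1 higher at an unadjusted p under 0.05, and 31 members still had a lower mean at 1000 mg/kg. At 500 mg/kg against controls the median was -0.23 without it, in place of 0.09. In 20 of the 35 all top-dose arrays lay below all 5 controls, as they did for 1.73% of all genes. Signals were low, with 3 of 35 members at or above the median level of all genes (6.56). Cdkn3, a phosphatase that acts on cyclin-dependent kinases, read 4.74, 5.27, 7.51 and 4.66 at 500 mg/kg and 3.72, 3.98, 4.30 and 3.90 at 1000 mg/kg (-1.57, adjusted p = 0.545).

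**Figure D4:**
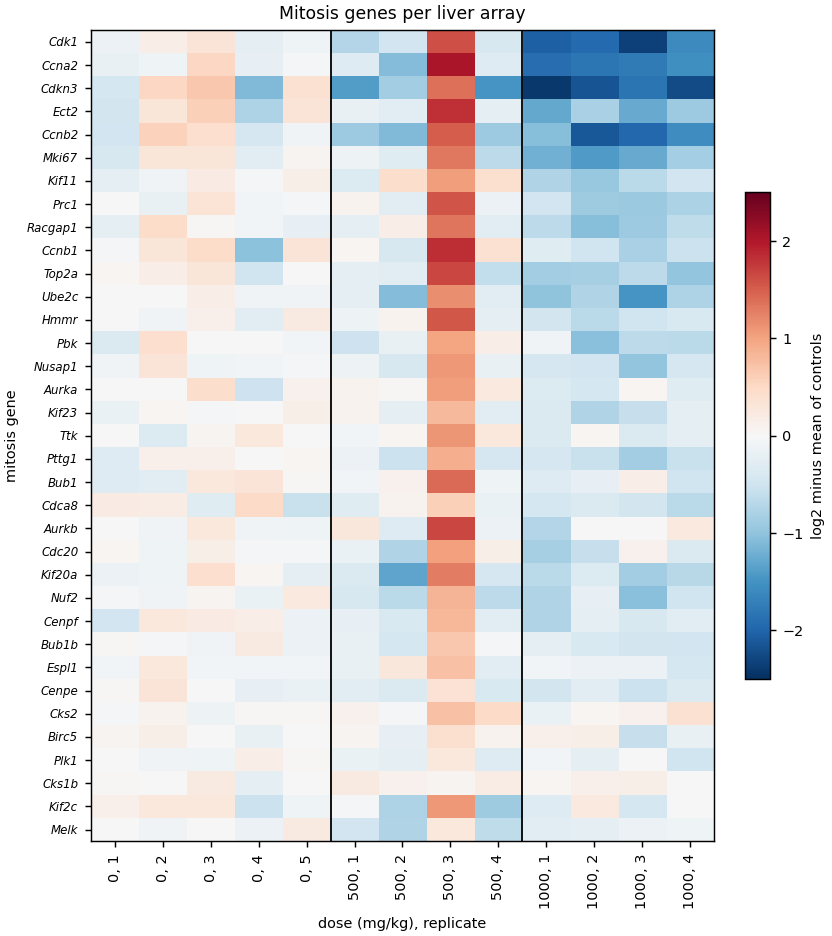
Log2 expression minus the mean of the 5 controls (colour) for 35 mitosis genes (rows, ordered by the difference between the top doses) in 13 liver arrays (columns, dose and replicate). Replicate 3 at 500 mg/kg is red in nearly all rows, and the 1000 mg/kg arrays are blue in most rows of the upper part.

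DNA replication genes had smaller differences. Of 27 none was higher and 5 lower at an unadjusted p under 0.05 (2.68% and 3.87% of all genes), with a median of -0.12. Without 500 mg/kg replicate 3 the number lower was 1 and the median -0.03, and without 500 mg/kg replicate 2 the median was -0.20. Ccnd1, cyclin D1, a driver of the G1 phase, read 9.92, 10.16, 8.91, 9.39 and 9.76 in controls, 9.61, 9.23, 8.53 and 8.26 at 500 mg/kg and 8.04, 7.74, 8.31 and 7.95 at 1000 mg/kg. It overlapped between the top doses (-0.90, interval -1.45 to -0.35, adjusted p = 0.407), and its fall against controls passed at 1000 mg/kg (-1.62, adjusted p = 0.00194) and stood at -0.72 at 500 mg/kg (adjusted p = 0.285).

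Among genes at or above the median level, others led those lower at 1000 mg/kg without overlap, and none of them passed between the top doses. Slc22a8, an organic anion uptake transporter, read 10.05, 9.92, 10.00 and 10.12 at 500 mg/kg and 9.91, 9.35, 9.07 and 9.59 at 1000 mg/kg (-0.54, interval -0.80 to -0.28, adjusted p = 0.148). Pklr, the liver pyruvate kinase, read 9.39, 9.10, 9.53 and 9.26 at 500 mg/kg and 8.62, 8.42, 8.43 and 9.01 at 1000 mg/kg, with controls from 8.57 to 9.32. The 500 mg/kg mean of Pklr lay 0.39 above controls and the top-dose mean below them (-0.31), and neither passed. The difference between the doses was -0.70 (interval -1.04 to -0.36, adjusted p = 0.148). Rdh5, a retinol dehydrogenase, was lower by a similar pattern (-0.50, interval -0.72 to -0.28, adjusted p = 0.123), from 7.26, 7.55, 7.30 and 7.67 to 6.76, 6.88, 6.92 and 7.19, while its other probe set gave -0.14. Tmsb4x, which binds actin monomers, and Csrp1, a LIM-domain protein of the actin skeleton, differed by -0.34 and -0.41. Tmsb4x passed as lower against controls at 1000 mg/kg (-0.46, adjusted p = 0.0020), as did Csrp1 (-0.39, adjusted p = 0.0263). Cops9, a subunit of the COP9 signalosome, differed by -0.28, Smim24, a small membrane protein, by -0.33, and Tle3, a transcriptional corepressor, by -0.39.

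Higher genes outside the lists were Pcsk6, a proprotein convertase, at 0.39, Amd1, which makes the aminopropyl donor for polyamines, at 0.44, and Tcf12, a basic helix-loop-helix factor, at 0.32, all with an adjusted p of 0.123. Amd1 read 8.48, 8.29, 8.17 and 8.33 at 500 mg/kg and 8.89, 8.73, 8.68 and 8.74 at 1000 mg/kg. Its controls, from 8.30 to 8.62, lay between the doses in mean. Tcf12 read 7.82, 7.53, 7.54 and 7.51 at 500 mg/kg and 7.87, 8.05, 7.83 and 7.94 at 1000 mg/kg, and at the top dose it stood within 0.09 of controls, which ran from 7.78 to 7.91.

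Genes of the growth hormone axis differed in both directions. Of 18, none passed, and the median was -0.11 (-0.0013 without 1000 mg/kg replicate 1). At an unadjusted p under 0.05, 3 were higher and 4 lower (2.68% and 3.87% of all genes). Ghr, the growth hormone receptor, was lower without overlap (-0.29, adjusted p = 0.452, and -0.10 on its other probe set). Serpina6, which carries corticosteroids in plasma, read 12.48, 12.20, 12.19 and 11.91 at 500 mg/kg and 11.89, 11.99, 11.34 and 11.75 at 1000 mg/kg (-0.45, adjusted p = 0.354). Cyp2c11, the main male-specific cytochrome P450 of rat liver, read 13.66, 13.60, 13.51 and 13.59 at 500 mg/kg and 13.36, 12.76, 13.01 and 13.58 at 1000 mg/kg. Its top-dose arrays reached into the range of the lower dose (-0.41, interval -0.66 to -0.17, adjusted p = 0.354). Igfbp1, an insulin-like growth factor binding protein, was 1.10 higher (interval 0.34 to 1.85, adjusted p = 0.545), with overlap.

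Of the 7 genes called at 500 mg/kg against controls, Gstt3 and Nqo1 are given above. The other 5 showed no further rise of 1.5-fold: each had a 95% interval between the top doses wholly within 1.5-fold, as did 90.2% of all genes. The 500 mg/kg arrays chose these 7 genes, so a lower value at 1000 mg/kg is a description here. Mif, a macrophage-derived cytokine that hepatocytes also make, read 11.22, 11.47, 11.41, 11.24 and 11.33 in controls, 11.88, 11.85, 12.01 and 12.15 at 500 mg/kg and 11.80, 11.51, 11.74 and 12.08 at 1000 mg/kg. The treated groups overlap each other and lie above the controls, and the difference between them was -0.19 (interval -0.42 to 0.04). Pex19, which brings membrane proteins to peroxisomes, rose 0.41 at 500 mg/kg and differed by -0.12 from there to 1000 mg/kg (interval -0.28 to 0.03). Samm50, which inserts proteins in the outer mitochondrial membrane, rose 0.40 and then differed by -0.12 (interval -0.29 to 0.04). Amt, of the glycine cleavage system, rose 0.31 and then differed by -0.06 (interval -0.19 to 0.07). Against controls at 1000 mg/kg Mif, Pex19 and Amt passed (0.44, 0.29 and 0.25) and Samm50 did not (0.28, adjusted p = 0.0821).

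Nup133, a nuclear pore protein, is the one of the 7 whose interval lay below 0. It read 6.23, 6.33, 6.46 and 6.30 at 500 mg/kg and 6.05, 6.23, 6.10 and 5.95 at 1000 mg/kg, with controls from 5.90 to 6.05. The difference between the top doses was -0.25 (interval -0.40 to -0.10, adjusted p = 0.403), and at 1000 mg/kg it stood 0.12 above controls (adjusted p = 0.473).

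Of the genes with the largest changes against controls at 1000 mg/kg, those named here had differences between the top doses that did not pass. Adh7, an alcohol dehydrogenase that also acts on retinol, read 6.65, 6.79, 6.87 and 6.21 at 500 mg/kg and 7.61, 7.71, 7.75 and 7.18 at 1000 mg/kg (0.93, interval 0.37 to 1.5, adjusted p = 0.405). Adh4, of the same family, was 0.72 higher (adjusted p = 0.582). Akr7a3, an aldehyde reductase that acts on aflatoxin products, stood 0.84 above controls at 500 mg/kg and 1.26 at 1000 mg/kg, with 0.43 between them (interval -0.01 to 0.86). Cidea, a lipid droplet protein, read 7.15, 8.17, 7.41 and 7.21 at 500 mg/kg and 8.51, 8.09, 8.69 and 8.81 at 1000 mg/kg (1.04, interval 0.41 to 1.67, adjusted p = 0.405). Apoa4, an apolipoprotein, read 11.23, 11.14, 10.96 and 11.30 at 500 mg/kg and 10.96, 9.86, 9.79 and 10.88 at 1000 mg/kg (-0.78, adjusted p = 0.238), the top-dose arrays lying far apart. Aldh1b1, a mitochondrial aldehyde dehydrogenase, differed by -0.71 (interval -1.36 to -0.06). Slc34a2, a sodium phosphate cotransporter, showed no such step: it stood at -0.84 at 500 mg/kg (adjusted p = 0.0957) and -0.82 at 1000 mg/kg (adjusted p = 0.0446) against controls. It read 7.89, 7.56, 7.35 and 7.34, then 7.86, 7.43, 7.26 and 7.64, a difference of 0.02 (interval -0.42 to 0.45).

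No gene passed the test of whether the step from 500 to 1000 mg/kg differed from the step from 0 to 500 mg/kg (limma), and 1010 had an unadjusted p under 0.05 (7.1%), 340 with a more positive second step (2.39%) and 670 with a more negative one (4.71%). The 500 mg/kg arrays enter both steps with opposite sign, so a high value in these arrays raises the first step and lowers the second. Besides Sult2a6, Tcf12 and Amd1, the most positive by p were Klkb1, plasma prekallikrein (0.74, unadjusted p = 0.000904), and Lactb2, a mitochondrial ribonuclease (0.39, unadjusted p = 0.00242). Besides Mif, Pex19 and Atp5mk, the most negative were Ldhd, D-lactate dehydrogenase (-0.77, unadjusted p = 0.000177), and Selenon, a selenoprotein of the endoplasmic reticulum (-0.58, unadjusted p = 0.000322). Ldhd read 7.61, 7.77, 7.84 and 7.72 at 500 mg/kg and 7.26, 7.27, 7.28 and 7.61 at 1000 mg/kg, the latter back at the level of controls, which ran from 7.29 to 7.41. Bhmt, which remethylates homocysteine, had a like course, with 0.35 at 500 mg/kg and -0.01 at 1000 mg/kg against controls.

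Respiratory chain genes had small differences, negative in most members. Of 67 measured subunits, none passed between the top doses, and 8 had a positive difference. At an unadjusted p under 0.05, 13 were lower and none higher (3.87% and 2.68% of all genes). In 14 the arrays did not overlap, with 1000 mg/kg lower (2.47% of all genes). The median was -0.08 between the top doses, 0.12 at 500 mg/kg and 0.05 at 1000 mg/kg against controls. All 67 intervals lay within 1.5-fold. The list means were 11.24, 11.21, 11.28 and 11.23 at 500 mg/kg and 11.15, 11.19, 11.12 and 11.18 at 1000 mg/kg, without overlap, with controls from 11.10 to 11.15. The medians of these arrays were 6.56, 6.55, 6.61 and 6.59 at 500 mg/kg and 6.55, 6.51, 6.61 and 6.58 at 1000 mg/kg. With each array's median subtracted the list means of the 2 doses overlap. Atp5mk, a membrane subunit of the ATP synthase outside the list, read 11.57, 11.47, 11.62 and 11.55 at 500 mg/kg and 11.29, 11.32, 11.37 and 11.33 at 1000 mg/kg (-0.22, interval -0.33 to -0.11, adjusted p = 0.148). Atp5mg, another ATP synthase subunit, differed by -0.21, and Ndufb10 of complex I and Uqcrh of complex III by -0.19 each. With each array centred on its median, which moved the median of all genes by 0.018, the number lower at an unadjusted p under 0.05 was 6 in place of 13, and 14 members had a positive difference. It was also 6 in a fit of the 8 arrays alone, and with the third replicate of either dose left out.

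Of 41 cytosolic ribosomal protein genes, 2 had a positive difference between the top doses, and the median was -0.09. At an unadjusted p under 0.05, 5 were lower (1 to 11 with any one array left out), as were 3.87% of all genes. Rps24, of the small subunit, differed by -0.20 on one probe set and by -0.01 on the other. Of 35 proteasome subunits 29 had a positive difference, with a median of 0.05 (0.02 without 500 mg/kg replicate 2) and none at an unadjusted p under 0.05. Their medians against controls were 0.12 at 500 mg/kg and 0.17 at 1000 mg/kg. All 41 and all 35 intervals lay within 1.5-fold.

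No member of the stress and inflammation lists passed between the top doses, and at an unadjusted p under 0.05 stood 2 of 22 genes of the ER and integrated stress response (both higher), 1 of 21 NF-kB inflammation genes (higher), 1 of 14 glucocorticoid response genes (higher) and none of 12 p53 and DNA damage genes, 19 immediate early genes and 16 circadian clock genes. Over all genes 2.68% were higher and 3.87% lower at that level. The medians of these 6 lists lay between -0.03 and 0.09, and between -0.07 and 0.16 with any one array left out.

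**Figure D5:**
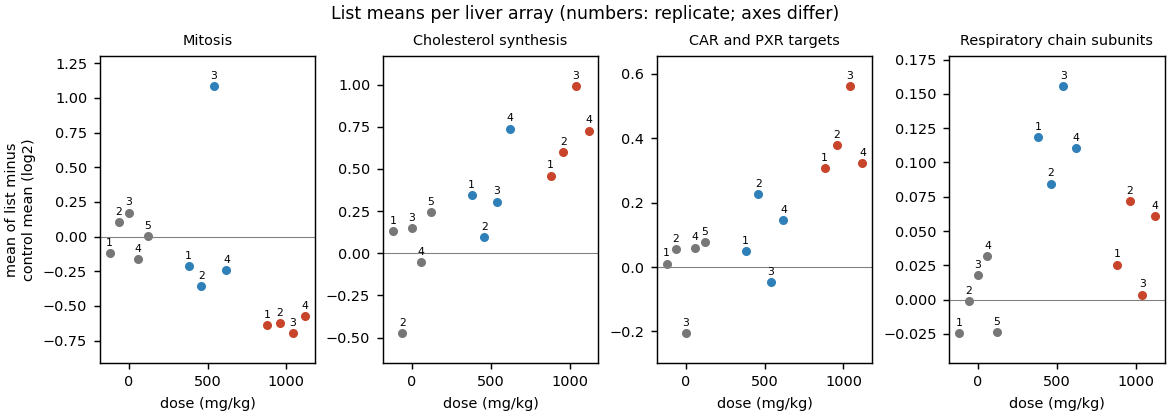
Mean of 4 gene lists per liver array, minus the control mean (y axis, log2, scales differ between panels), at 0, 500 and 1000 mg/kg (x axis). Points are arrays, numbered by replicate. Mitosis at 500 mg/kg has 1 array far above the other 3, the CAR and PXR target means at 1000 mg/kg all lie above those at 500 mg/kg, and the cholesterol synthesis means overlap. The respiratory chain means at 500 mg/kg all lie above those at 1000 mg/kg, on values not centred on the array median.

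No marker of hepatocytes or of another cell type passed between the top doses. Of 9 hepatocyte markers 2 had a positive difference, with a median of -0.05. At an unadjusted p under 0.05 none of these was higher and 2 were lower. In 2 hepatocyte markers the arrays did not overlap, with the top dose lower (2.47% of all genes). Of 11 Kupffer cell and macrophage markers 1 had a positive difference, with a median of -0.19. At an unadjusted p under 0.05 none was higher and 2 were lower (2.68% and 3.87% of all genes). Leaving out the second array at 500 mg/kg gave a median of -0.06, leaving out the second at 1000 mg/kg gave -0.11, and the number lower ran from 0 to 5 with any one array left out. Against controls the median was -0.10 at 500 mg/kg and -0.23 at 1000 mg/kg, where all 11 had a negative difference and none passed. The 2 Kupffer cell and macrophage markers lower between the top doses were Lyz2, lysozyme (-0.46, adjusted p = 0.723), and Cd163, a scavenger receptor (-0.34, adjusted p = 0.723). The list means were 9.03, 9.24, 8.95 and 8.87 at 500 mg/kg and 8.95, 8.65, 8.82 and 8.93 at 1000 mg/kg, and overlapped. Tmsb4x and Csrp1, lower at the top dose and given above, belong to none of the marker lists. The part of cell makeup in their values and in the marker values was not tested. Stellate cell and fibroblast marker means ran from 6.97 to 7.21 at 500 mg/kg and from 6.81 to 7.23 at 1000 mg/kg, and T and NK cell marker means from 5.31 to 5.42 and from 5.21 to 5.39. The medians between the top doses were -0.12 for 12 stellate cell and fibroblast markers, -0.06 for 11 T and NK cell markers, -0.05 for 9 endothelial markers and -0.13 for 5 cholangiocyte markers. They were -0.28 for 3 B cell markers, -0.22 for 3 neutrophil markers, -0.05 for 3 erythroid markers, 0.10 for 5 adipocyte markers and -0.03 for 6 exocrine pancreas markers. With 1 array left out the cholangiocyte median ran from -0.22 to -0.01, and the adipocyte from -0.17 to 0.12. Klrg1, a lymphocyte receptor, was lower by 0.52 in mean at the top dose (-0.52, adjusted p = 0.545), and its fall against controls passed (adjusted p = 0.0341).

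The step between the top doses was also set against kidney, with 4 arrays at 1000 mg/kg and 3 at 500 mg/kg. In a model over all 49 arrays 3 of 14217 genes passed for the difference between organs (0.0211%), each with a limma adjusted p of 0.0499. Abcc3 was higher by 1.22 in liver and 0.04 in kidney, with kidney values from 6.13 to 6.26 at 500 mg/kg and 6.13 to 6.32 at 1000 mg/kg. Sult2a6 was higher by 2.12 in liver and stood at -0.15 in kidney, where its signal was near 4 at both doses, from 3.81 to 4.11. Rpusd3, which modifies mitochondrial RNA, was -0.22 in liver and 0.50 in kidney. The 3 lay just under the threshold, and none passed with the mean of a gene's probe sets, quantile normalisation, median centring or robust moderation.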

How the data were processed

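Total RNA of each liver or kidney sample was hybridised to 1 Affymetrix Rat Genome 230 2.0 array, per the labels' protocols. The authors deposited log2 values, 1 per probe set and array. RMA made them, per the submitters' processing notes. Its version, and whether both organs were normalised together, are not given in the sources used here. Because RMA gives all arrays one distribution, a shift common to the whole array would not show. Detection calls were not used, so low values may be background. The treatment text of the labels names another compound, MCHM, and the series title and sample labels are followed here. Of 31099 probe sets 20826 had 1 current gene symbol, and each of 14217 genes was read from its brightest probe set (mean of 49 arrays).

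For liver, limma 3.58.1 (R 4.3.3) fitted 1 mean per dose over 25 arrays, with two-sided contrasts and Benjamini-Hochberg adjustment over all genes, called under 0.05. The contrasts were 1000 against 500 mg/kg, each of these against 0 mg/kg, the difference of the steps and, over 49 arrays, liver minus kidney. Named genes were those called between the top doses or at 500 mg/kg, the 10 next each way whose arrays did not overlap and whose level was at or above the median, the largest changes at 1000 mg/kg, the 5 leading each way for the step difference, and up to 4 per list with the smallest p. Rpusd3 was named after its values were seen, and not every gene the rule gives is printed. The lists get no test. The comparison, the lists and the rule were chosen with earlier results of these data known. Tested on simulated data for 1000 against 500 mg/kg with 200 of 14217 genes changed, the fit called 86% at 1.5-fold and 92% at 2-fold. It called 100% at both 3-fold and 4-fold, besides 13 of 14017 unchanged genes. The simulated noise was independent between genes, and the number of changed genes sets how strict the adjustment is. These shares therefore do not tell how many changes were missed in the real comparison, where 1 gene passed. Alternatives were the mean of a gene's probe sets, brighter genes only, quantile normalisation, median centring, robust moderation with a variance trend, weights per array, a replicate block, the compared groups alone, each array left out and, added after the data were seen, all probe sets.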

Additional observations from a re-analysis of the deposited data

Results flagged for a closer look

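In groups of 4 arrays the highest or lowest array stood apart by Dixon's 95% criterion in 16 of 244 tests over named genes and list means (6.56%), and chance flags about 1 in 20. The mean of the mitosis list was 6.36 in 500 mg/kg replicate 3, with the other 3 between 4.91 and 5.05. In the same replicate Cdk1 read 7.71 against 5.37 to 5.70, Cyp27a1 11.27 against 11.35 to 11.37, and the mean of the amino acid breakdown and urea cycle list 10.79 against 10.90 to 10.91. In 500 mg/kg replicate 4 Tm7sf2 read 10.63 against 10.32 to 10.35 and Lactb2 11.03 against 10.79 to 10.82. Tcf12 read 7.82 in 500 mg/kg replicate 1 against 7.51 to 7.54, and Cd163 read 7.80 in 500 mg/kg replicate 2 against 7.31 to 7.34. In 1000 mg/kg replicate 4 Slc27a5 read 12.59 against 12.79 to 12.81, Pcsk6 7.96 against 8.26 to 8.31, Tmsb4x 12.05 against 11.86 to 11.87, Ldhd 7.61 against 7.26 to 7.28 and Rps24 12.06 against 11.81 to 11.84, and in each of these 5 genes that array was the top-dose array nearest to the 500 mg/kg values. Idi1 read 12.17 in 1000 mg/kg replicate 3 against 11.65 to 11.71, Ndufb10 10.86 in 1000 mg/kg replicate 1 against 10.75 to 10.76, and the mean of the growth hormone and IGF list 9.56 in 1000 mg/kg replicate 2 against 9.31 to 9.33.

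For the step between the top doses 3 genes passed the test of the difference between organs. They were Abcc3 (liver minus kidney 1.18), Sult2a6 (2.27) and Rpusd3 (-0.72), each with a limma adjusted p of 0.0499. None passed with the mean of probe sets, quantile normalisation, median centring or the variance trend, and Sult2a6 had a low signal in kidney (3.81 to 4.11).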

How the results depend on the processing

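Of 1255 gene values under alternatives, 1199 kept their direction and side of the threshold, 45 passed it, 6 (all Abcc3) no longer did and 5 reversed. Those were Slc34a2 with 1 array left out, where its values ran from -0.088 to 0.13, and the other probe set of Selenon (0.0017). Of 484 list medians 474 moved by less than the spread between arrays. Between the top doses, where 1 gene passed, 2 passed with the mean of probe sets, 14 among brighter genes (Abcc3, below the median level, is not among them), 7 after median centring, 10 with a variance trend, 0 over all 31042 probe sets and 0 to 14 with 1 array left out: 14 without 1000 mg/kg replicate 4, 3 without replicate 1 of either dose, and 0 when replicate 3 or 4 at the lower dose, or 2 or 3 at the top dose, was left out. The step difference gave 2 without 500 mg/kg replicate 1. At 500 against 0 mg/kg 7 became 11 (mean of probe sets), 67 (brighter genes), 3 (quantile), 3 (centring), 53 (trend), 20 (weights), 1 (groups alone), 4 (all probe sets) and 2 to 14 (1 array left out). At 1000 against 0 mg/kg 149 became 270 (brighter genes), 225 (weights), 50 (groups alone), 93 (all probe sets) and 40 to 137 (1 array left out). Between organs 3 became 0 with the mean of probe sets, quantile normalisation, centring, the trend or all probe sets, 1 with the groups alone and 0 to 2 with 1 array left out. Apart from fewer genes or arrays, the cause was not tested. Same-numbered arrays of the top doses had correlated deviations of 0.10, 0.14, 0.07 and 0.15. Pairs with different numbers ran from -0.15 to 0.11. Whether same-numbered arrays share more than a number was not tested, and the main fit does not pair them. With the replicate block 1 gene passed between the top doses (Abcc3, adjusted p = 0.0065), 3 at 500 mg/kg, 103 at 1000 mg/kg, 0 for the step difference and 3 between organs. With 4 arrays a group, the 95% interval of the median gene reached 0.25 log2 units either side of its difference. Smaller differences could therefore not be told from 0 for many genes.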
